A study of Mus musculus with 8 samples.

Results

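The 10 genes described here set how a hematopoietic stem cell (HSC) passes from rest into the cell cycle. They were chosen by name, as regulators of quiescence, D-type cyclins and inhibitors of cyclin-dependent kinases: Cdkn1a, Cdkn1b, Cdkn1c, Cdkn2c, Ccnd1, Ccnd2, Ccnd3, Cdk4, Cdk6 and Rb1. All 10 were present among the 10720 genes of the expression table. The study profiled single HSCs from adult C57BL/6 mice, in 4 libraries labelled wild type (WT) and 4 labelled Med23-/- (KO), to compare their transcriptomes. Med23 encodes a subunit of Mediator, the complex that links transcription factors to RNA polymerase II. In both groups the Med23 alleles were conditional (Med23 L/L): the mice labelled KO carried the Mx1-cre transgene, and the mice labelled WT were littermates without it. Mx1-cre is driven by an interferon-responsive promoter and was switched on with poly(I:C), so it acts in many cell types that respond to interferon and not in HSCs alone. Bone marrow cells were sorted as LSK (lineage-negative, Sca1+, c-Kit+) CD150+CD34-CD48- and picked by hand. The age was given only as adult, and the number of mice behind a library was not given in the sources used here. WT mice also received poly(I:C) in the study's blood counts, and it is not stated for these libraries.

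D-type cyclins bind CDK4 and CDK6, and the active kinases phosphorylate the retinoblastoma protein, which then lets go of the E2F factors that switch on the genes for DNA replication. Inhibitors of the CIP/KIP family (p21 from Cdkn1a, p27 from Cdkn1b and p57 from Cdkn1c) bind complexes of cyclins and kinases, whereas p18 (Cdkn2c), of the INK4 family, binds CDK4 and CDK6 directly. Adult HSCs are mostly quiescent, and p57 and p27 are known to help hold them there, while CDK6 is known to favour their exit from rest.

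Promoter sequences are shown for the kinases and for p21, since their RefSeq windows held the motifs searched for below. RefSeq promoter windows were found for 6 of the 10 members, and none for Cdkn1c, Ccnd1, Ccnd2 or Rb1. Each window covers the 250 bases before an annotated start on the build GRCm38.p6 and is described as sequence only, since the expression table was made on another build. The window of Cdk4, at chr10:127063285-127063534 on the + strand, held 4 copies of the E-box CACGTG, in capitals, a motif that binds MYC and related factors and reads the same on both strands. They began 172, 118, 98 and 11 bases before the start. Of 32851 windows of the same length in the table, 7 held at least 4 such copies (0.0213%) and 6.02% held at least 1. The window of Cdk6, at chr5:3343643-3343892 on the + strand, held 1 copy, 220 bases before the start.
Cdk4: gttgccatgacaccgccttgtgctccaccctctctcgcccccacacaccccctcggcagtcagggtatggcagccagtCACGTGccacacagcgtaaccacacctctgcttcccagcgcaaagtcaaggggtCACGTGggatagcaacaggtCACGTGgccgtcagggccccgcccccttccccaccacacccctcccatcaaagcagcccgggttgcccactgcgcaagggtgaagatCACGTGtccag
Cdk6: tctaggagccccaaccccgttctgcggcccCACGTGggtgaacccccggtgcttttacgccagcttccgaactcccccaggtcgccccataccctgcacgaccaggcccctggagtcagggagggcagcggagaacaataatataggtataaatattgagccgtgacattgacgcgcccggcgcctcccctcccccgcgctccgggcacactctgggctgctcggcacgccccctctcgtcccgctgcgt

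Cdkn1a, a classic target of p53, had 2 annotated starts. The window of the first, at chr17:29090729-29090978 on the + strand, held 2 copies of the p53 decamer, beginning 73 and 51 bases before the start and shown in capitals. At least 2 such decamers were found in 85 of the 32851 windows (0.259%) and at least 1 in 7.13%. The decamer was searched as RRRCWWGYYY (R is A or G, W is A or T, Y is C or T) with no mismatch allowed. A full p53 site, searched as a pair of such exact decamers without a gap, was found in 0 of the 9 member windows and in 3 of all windows. In the first window the decamer at 51 bases is followed directly by tgacatgttc, which departs from the pattern at its first base only. A pair with such a mismatch was not counted. The window of the second start, at chr17:29093519-29093768 on the + strand, held no decamer.
Cdkn1a, first start: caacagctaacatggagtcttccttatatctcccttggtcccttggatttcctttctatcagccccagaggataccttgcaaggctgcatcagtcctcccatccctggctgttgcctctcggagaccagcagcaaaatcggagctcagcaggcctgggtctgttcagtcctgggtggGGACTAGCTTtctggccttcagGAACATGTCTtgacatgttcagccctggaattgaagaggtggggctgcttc
Cdkn1a, second start: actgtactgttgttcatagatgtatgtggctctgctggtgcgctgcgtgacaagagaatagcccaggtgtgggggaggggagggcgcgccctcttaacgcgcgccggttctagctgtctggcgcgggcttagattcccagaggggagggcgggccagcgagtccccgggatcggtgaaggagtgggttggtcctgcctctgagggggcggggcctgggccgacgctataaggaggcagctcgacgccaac
The E2F motifs TTTCCCGC and TTTGGCGC, searched on both strands, were found in 0 of the 9 windows of the members and in 1.30% of all windows. These matches are letters in a window and were not tied to any measurement of binding.

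The expression table held 304 WT-labelled cells and 282 labelled KO, and its column names did not give the library. Each label was therefore 1 pool, there was no replicate, and no difference below has a test. These are the cells the study retained. Its minimum of 2000 detected genes and 20000 unique molecular identifiers (UMIs), applied again to the 10720 genes of the table alone, kept 259 WT-labelled cells, with 21475782 UMIs and a median of 59649 per cell, and 234 KO-labelled cells, with 16180546 UMIs and a median of 50281. A UMI marks 1 captured mRNA molecule at its 3' end, whatever the length of the mRNA, so levels can be set side by side between genes. Levels are given as UMIs per 1000000 UMIs of the pool (CPM). Ratios are log2 of the level in the KO-labelled pool over that in the WT-labelled pool. The exact 95% intervals in brackets cover counting error only, not the variation between cells, mice or libraries. Over all 10720 genes the median log2 ratio was 0.02, and 5% of genes lay below -1.45 and 5% above 1.18.

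The targeted gene and the stem cell markers were checked first. Med23 was measured by 122 UMIs (5.68 CPM) in the WT-labelled pool and by 117 UMIs (7.23 CPM) in the KO-labelled pool, a log2 ratio of 0.35 [-0.03, 0.73]. It was thus not lower in the KO-labelled pool, and whether these 3' reads come from the deleted part of the gene is not given in the sources used here, so the labels are used as given. All 8 positive HSC markers examined were in the table, with summed levels of 974 CPM in the WT-labelled pool and 754 CPM in the KO-labelled pool. Slamf1, which encodes CD150, stood at 39.0 CPM in the WT-labelled pool and 8.16 CPM in the KO-labelled pool, while Cd34 and Cd48, which the gate selects against as proteins, stood at 178 and 304 CPM and at 6.80 and 5.25 CPM. The pool labelled WT also held transcripts that define oocytes. The 21 oocyte genes found, of 22 listed, summed to 2591 CPM in the WT-labelled pool and 129 CPM in the KO-labelled pool, and over 1000 CPM of them were found in 68 of 259 WT-labelled cells and 2 of 234 labelled KO. Those 68 cells carried 25.6% of the UMIs of their pool. Each ratio was therefore also computed without the cells over 1000 CPM, and it is given below where it moved by about 0.1 or more. Leaving these cells out did not remove all oocyte transcripts. With cells reduced at random to the same depth, the oocyte gene Zp3 was still found in 62 of the 191 WT-labelled cells left (32.5%). It was found in 16 of the 232 KO-labelled cells left (6.90%).

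Ccnd2 was by far the most abundant of the 10 genes in both pools, and the inhibitors and Rb1 were rare. By level in the WT-labelled pool the order was Ccnd2 (1066 CPM), Cdk4 (403), Cdk6 (285), Ccnd1 (55.3), Cdkn1c (35.9), Cdkn1b (27.8), Cdkn1a (23.7), Cdkn2c (10.8), Rb1 (7.40) and Ccnd3 (3.35). Counting intervals of neighbours in this order were separate, except those of Cdkn1b (25.6 to 30.1 CPM) and Cdkn1a (21.7 to 25.9 CPM). In the KO-labelled pool the order was Ccnd2 (1396 CPM), Cdk4 (383), Cdk6 (229), Ccnd1 (69.3), Cdkn1b (50.4), Cdkn1a (39.4), Cdkn1c (31.9), Cdkn2c (17.1), Ccnd3 (12.7) and Rb1 (4.94). Here the intervals of all neighbours were separate, the closest being Cdkn2c (15.1 to 19.2 CPM) and Ccnd3 (11.1 to 14.6 CPM). By these pooled levels Cdkn1c moved from the first to the third of the 4 inhibitors, and Ccnd3 and Rb1 changed places. These changes depended on deep cells and on a few cells. With cells thinned to equal depth, Cdkn1b led Cdkn1c in both pools, by 240 to 154 UMIs in WT-labelled cells and 250 to 157 in KO-labelled cells. Without the 5 top cells of each gene, Rb1 and Ccnd3 held 37 and 34 UMIs in the WT-labelled pool. In the KO-labelled pool they then held 30 and 103.

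**Figure D1:**
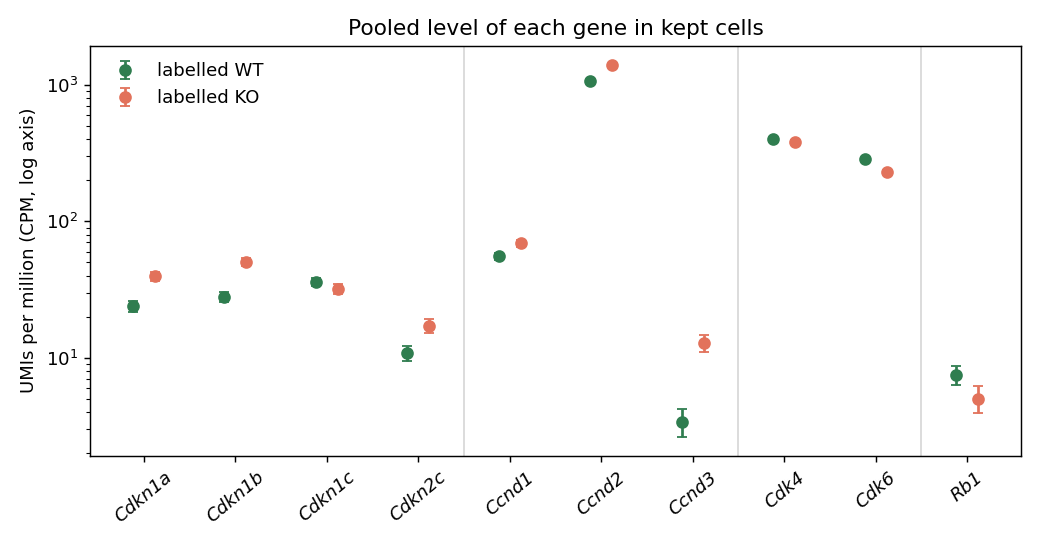
The level of each member in the pool of WT-labelled cells (green) and labelled KO (coral), in CPM on a log axis, with exact 95% Poisson intervals that cover counting error only. Ccnd2 lies highest in both pools (1066 and 1396 CPM), and the widest gap between pools is that of Ccnd3 (3.35 and 12.7 CPM).

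Across the 10 members the median log2 ratio was 0.36, against 0.02 over all genes. Of the members, 6 were higher in the KO-labelled pool (51.9% of all genes were higher) and 4 were lower (48.1% of all genes). The level was at least 1.5-fold higher in 4 members, Cdkn1a, Cdkn1b, Cdkn2c and Ccnd3, a size that 17.2% of all genes reached, and at least 1.5-fold lower in 0, a size that 15.5% reached. With each cell thinned to 20000 UMIs, 4 members were again at least 1.5-fold higher, but only Cdkn2c and Ccnd3 were among both sets, with Ccnd1 and Rb1 in place of Cdkn1a and Cdkn1b. The share of all genes at that depth is not given here, so this second count has no background. Counting intervals lay wholly above no difference in 6 members (39.2% of all genes) and wholly below it in 4 (35.7%); an interval that held no difference was found for 25.1% of all genes and for 0 members. With such shares over all genes, an interval apart from no difference is common in these pools and marks no member out.

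The CIP/KIP inhibitors went in different directions. Cdkn1b, the gene of p27, was measured by 597 UMIs in the WT-labelled pool (27.8 CPM) and 816 in the KO-labelled pool (50.4 CPM), a log2 ratio of 0.86 [0.71, 1.01], or 1.81-fold. When each cell was first reduced at random to 20000 UMIs, so that every cell weighed the same, the log2 ratio was 0.21 [-0.06, 0.47]. The difference in p27 mRNA was thus smaller when deep cells weighed no more than the rest, and its interval then held no difference. Without the cells with oocyte transcripts the log2 ratio was 0.96.

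Cdkn1a, which encodes p21, gave 510 UMIs in the WT-labelled pool (23.7 CPM) and 638 in the KO-labelled pool (39.4 CPM), a log2 ratio of 0.73 [0.56, 0.90], or 1.66-fold. The 68 WT-labelled cells with oocyte transcripts held 55.7% of the Cdkn1a UMIs of their pool, at 51.7 CPM against 14.1 CPM in the other 191 cells. Without such cells the log2 ratio was 1.48, and at 20000 UMIs per cell it was 0.45. The part of the oocyte transcripts in the level of p21 mRNA was not tested.

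Cdkn1c, the gene of p57, was the exception among the inhibitors, with 770 UMIs (35.9 CPM) in the WT-labelled pool and 516 (31.9 CPM) in the KO-labelled pool, a log2 ratio of -0.17 [-0.33, -0.01]. The direction was not stable. The log2 ratio was -0.37 without the cells with oocyte transcripts, which held 20.01 CPM of Cdkn1c against 41.3 CPM in the other WT-labelled cells, but 0.17 [-0.16, 0.50] at 20000 UMIs per cell and 0.05 [-0.16, 0.26] without the 5 cells of each label that held most Cdkn1c. A single WT-labelled cell held 118 of the 770 UMIs.

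Of the INK4 family, Cdkn2c (p18) was measured by 231 UMIs in the WT-labelled pool (10.8 CPM) and 276 in the KO-labelled pool (17.1 CPM), a log2 ratio of 0.67 [0.41, 0.92], or 1.59-fold. Without the cells with oocyte transcripts it was 0.53, just under 1.5-fold.

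Summed, the 4 inhibitors stood at 98.2 CPM in the WT-labelled pool and 139 CPM in the KO-labelled pool, a log2 ratio of 0.50 [0.41, 0.59]. Cdkn1c made up 36.5% of the inhibitor UMIs in the WT-labelled pool and 23.0% in the KO-labelled pool. Over the same pools Cdkn1b went from 28.3% to 36.3%, Cdkn1a from 24.2% to 28.4% and Cdkn2c from 10.96% to 12.3%. This make-up depended on the deep cells. The level of Cdkn1b over that of Cdkn1c was 0.775 in the WT-labelled pool and 1.58 in the KO-labelled pool, but 1.56 and 1.59 with each cell thinned to 20000 UMIs, where Cdkn1c made up 25.8% and 23.5% of the inhibitor UMIs.

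The D cyclins, the growth-factor-responsive partners of CDK4 and CDK6, were all higher in the KO-labelled pool. Ccnd2 was measured by 22898 UMIs (1066 CPM) in the WT-labelled pool and 22584 (1396 CPM) in the KO-labelled pool, a log2 ratio of 0.39 [0.36, 0.42]. Its log2 ratio was 0.34 without the cells with oocyte transcripts and 0.15 with the authors' normalized values averaged over cells, a scale on which the median of all genes was -0.14. The WT-labelled cells had quartiles of 519, 924 and 1598 CPM of Ccnd2 and those labelled KO had 811, 1293 and 1836 CPM, so that the distributions overlapped widely but the lower, middle and upper quartiles were all higher in KO-labelled cells.

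Ccnd1, which encodes cyclin D1, gave 1187 UMIs in the WT-labelled pool (55.3 CPM) and 1122 in the KO-labelled pool (69.3 CPM), a log2 ratio of 0.33 [0.21, 0.45]. Its log2 ratio was 0.21 without the cells with oocyte transcripts and 0.65 at 20000 UMIs per cell.

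Ccnd3, the gene of cyclin D3, had the largest ratio of the 10 genes, although few molecules were seen. It was measured by 72 UMIs in the WT-labelled pool (3.35 CPM) and 206 in the KO-labelled pool (12.7 CPM), a log2 ratio of 1.93 [1.53, 2.33], or 3.80-fold, above 98.7% of all genes. The 5 cells with most Ccnd3 held 50% of its UMIs in each pool. Leaving out the 5 top cells of each label left 34 and 103 UMIs, a log2 ratio of 2.03 [1.45, 2.63], and leaving out the cells with oocyte transcripts gave 1.87. With the authors' normalized values averaged over cells it was smaller, 1.15.

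Ccnd2 supplied nearly all D cyclin mRNA, 94.8% of the D cyclin UMIs in the WT-labelled pool and 94.4% in the KO-labelled pool, so the large ratio of Ccnd3 added little to the sum. All D cyclins together stood at 1125 and 1478 CPM, a log2 ratio of 0.39 [0.37, 0.42].

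The kinases were lower in the KO-labelled pool, by less than 1.5-fold. Cdk4 was measured by 8652 UMIs (403 CPM) in the WT-labelled pool and 6197 (383 CPM) in the KO-labelled pool, a log2 ratio of -0.07 [-0.12, -0.03]. In the cells with oocyte transcripts it stood at 298 CPM, against 439 CPM in the other WT-labelled cells, and the log2 ratio without them was -0.20. The interval held no difference at 20000 UMIs per cell (-0.05 [-0.14, 0.05]), with at least 3000 genes and 30000 UMIs (-0.04 [-0.09, 0.01]) and without the 5 top cells (-0.03 [-0.08, 0.02]). Quartiles per cell were 152, 329 and 501 CPM in WT-labelled cells and 126, 292 and 522 CPM in KO-labelled cells, which overlapped almost fully.

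Cdk6 gave 6125 UMIs (285 CPM) in the WT-labelled pool and 3710 (229 CPM) in the KO-labelled pool, a log2 ratio of -0.31 [-0.37, -0.26]. This gene kept its direction under every alternative on the ratio scale, from -0.55 with the authors' normalized values averaged over cells to -0.27 at 20000 UMIs per cell. The median cell held 187 CPM of Cdk6 in the WT-labelled pool and 129 CPM in the KO-labelled pool, with upper quartiles of 431 and 330 CPM.

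The 2 kinases together stood at 688 CPM in the WT-labelled pool and 612 CPM in the KO-labelled pool, a log2 ratio of -0.17 [-0.21, -0.13]. Set beside the sums above, the mRNA of the D cyclins over that of the kinases was 1.63 in the WT-labelled pool and 2.41 in the KO-labelled pool, while the kinases over the inhibitors were 7.01 and 4.41. The level of Cdk4 over that of Cdk6 was 1.41 and 1.67, respectively.

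Rb1, the gene of the retinoblastoma protein that CDK4 and CDK6 act on, was the least reliable of the 10 genes. It was measured by 159 UMIs in the WT-labelled pool (7.40 CPM) and 80 in the KO-labelled pool (4.94 CPM), a log2 ratio of -0.58 [-0.99, -0.19], which lay just within 1.5-fold. A single WT-labelled cell held 60 of the 159 UMIs, or 37.7%. Without the top cell of each label the log2 ratio was -0.21 [-0.68, 0.26], without the 5 top cells it was 0.07 [-0.67, 0.81], and at 20000 UMIs per cell it was 0.60 [-0.15, 1.37]. No direction can be read for Rb1 from these cells.

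**Figure D2:**
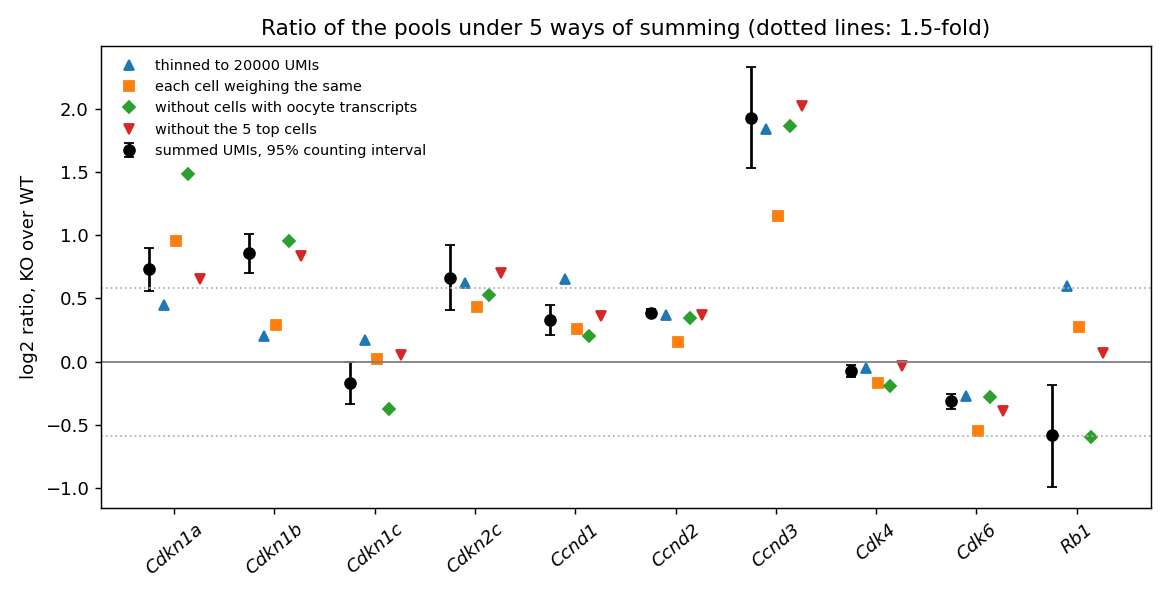
The log2 ratio of the KO-labelled pool over the WT-labelled pool for each member, from summed UMIs with its exact 95% counting interval (black) and after thinning each cell to 20000 UMIs, averaging the authors' normalized values so that each cell weighs the same, leaving out cells with oocyte transcripts, or leaving out the 5 cells with most UMIs of that gene in each label. Dotted lines mark 1.5-fold. Ccnd3 stays above and Cdk6 below 0 in every version, while the points of Cdkn1c and Rb1 lie on both sides of 0.

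How the molecules were spread over single cells differed strongly between members. Ccnd2 was seen in 257 of 259 WT-labelled cells and all 234 labelled KO, Cdk4 in 250 and 216, and Cdk6 in 214 and 192. Each of the other 7 genes had a median of 0 CPM per cell in both pools. A handful of cells carried the rare ones: 50% of the Cdkn1a UMIs lay in 6 cells of each label, and 50% of the Rb1 UMIs in 2 WT-labelled cells and 4 labelled KO. By contrast, 50% of the Ccnd2 UMIs were spread over 42 cells of each label. Among the cells that held any Cdkn1a, the median level was 39.0 CPM in 43 WT-labelled cells and 144 CPM in 42 KO-labelled cells, without correction for depth.

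**Figure D3:**
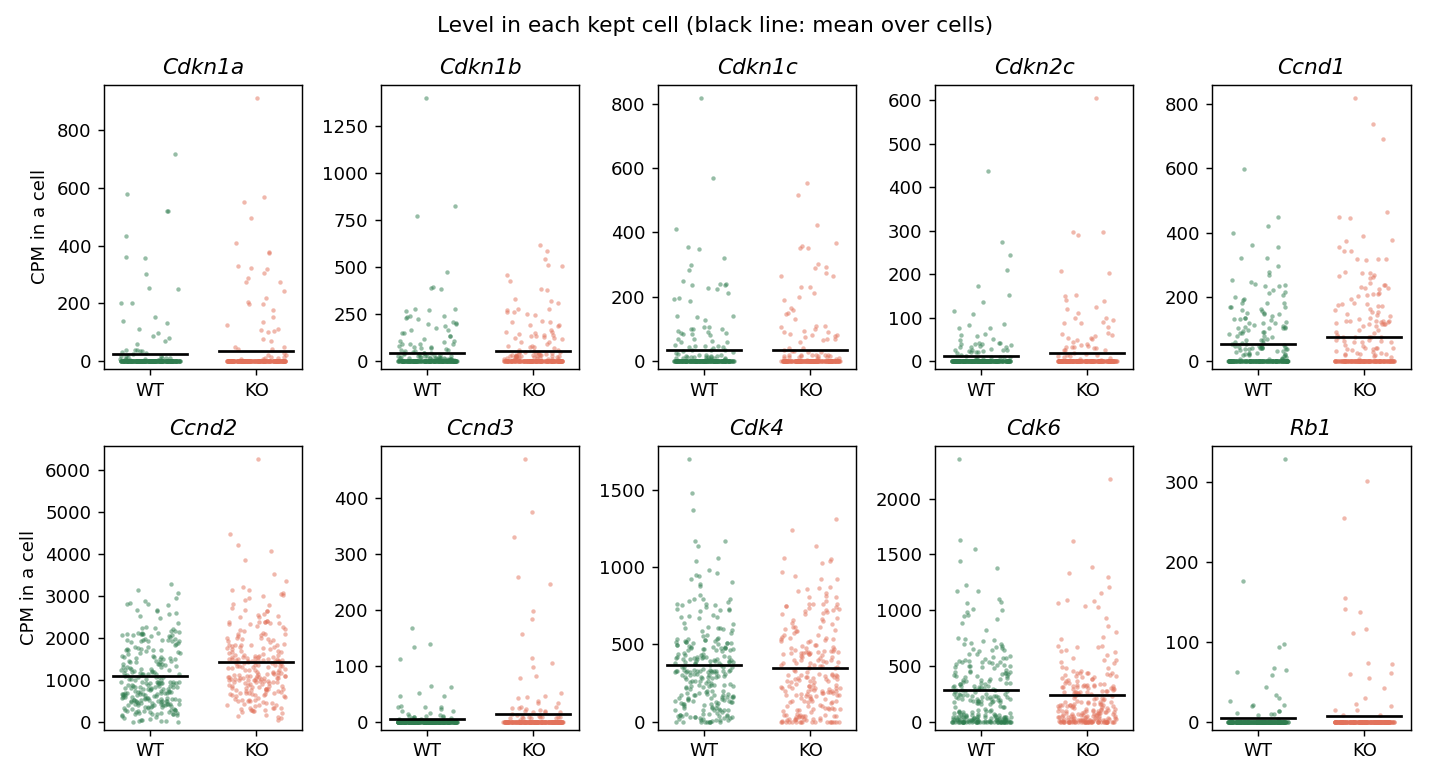
The level of each member in every kept cell, in CPM of that cell's UMIs, for 259 WT-labelled cells (green) and 234 labelled KO (coral), with the mean over cells as a black line; the vertical axes differ between genes. Ccnd2 is spread over nearly all cells, whereas Cdkn1a, Cdkn2c, Ccnd3 and Rb1 lie at 0 in most cells with a few cells far above the mean.

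To compare shares of cells at equal depth, every kept cell was thinned to 20000 UMIs. A UMI of Ccnd3 was then found in 14 of 259 WT-labelled cells (5.41%) and 25 of 234 labelled KO (10.7%), a difference of 5.28 percentage points [0.22, 10.5]. This interval lay barely apart from 0. The share of all genes with such an interval was not computed, so it does not mark Ccnd3 out. Without thinning the shares were 12.4% and 19.2%. For Cdkn1a the shares were 10.04% and 15.0%, for Cdkn1b 22.8% and 28.2%, for Cdkn1c 19.7% and 18.4%, and for Cdkn2c 11.6% and 16.2%. All of these intervals of the difference included 0, the widest reach being that of Cdkn1b, from -2.54 to 13.4 points.

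The shares of cells with a cyclin or kinase UMI were likewise close. Ccnd1 was found in 32.4% of WT-labelled cells and 38.9% of KO-labelled cells, Ccnd2 in 98.8% and 99.6%, Cdk4 in 90.0% and 85.9%, Cdk6 in 71.8% and 73.5%, and Rb1 in 5.02% and 6.41%. The level of Cdk6 thus differed between pools while the share of cells with it was nearly equal. Zp3, an oocyte gene that HSCs should lack, was found at the same depth in 44.8% of WT-labelled cells and 7.26% of KO-labelled cells. In the WT-labelled pool only Ccnd2, Cdk4 and Cdk6 were in a larger share of cells than Zp3. Zp3 stood at 394 CPM there, above each of the other 7 members, so its share sets no floor for theirs. Whether the UMIs in a cell came from that cell was not tested. The shares of these 7 members are therefore not taken as shares of cells that express them. In the KO-labelled pool only Rb1 was below Zp3, and the intervals of Cdkn1a and Ccnd3 overlapped that of Zp3.

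**Figure D4:**
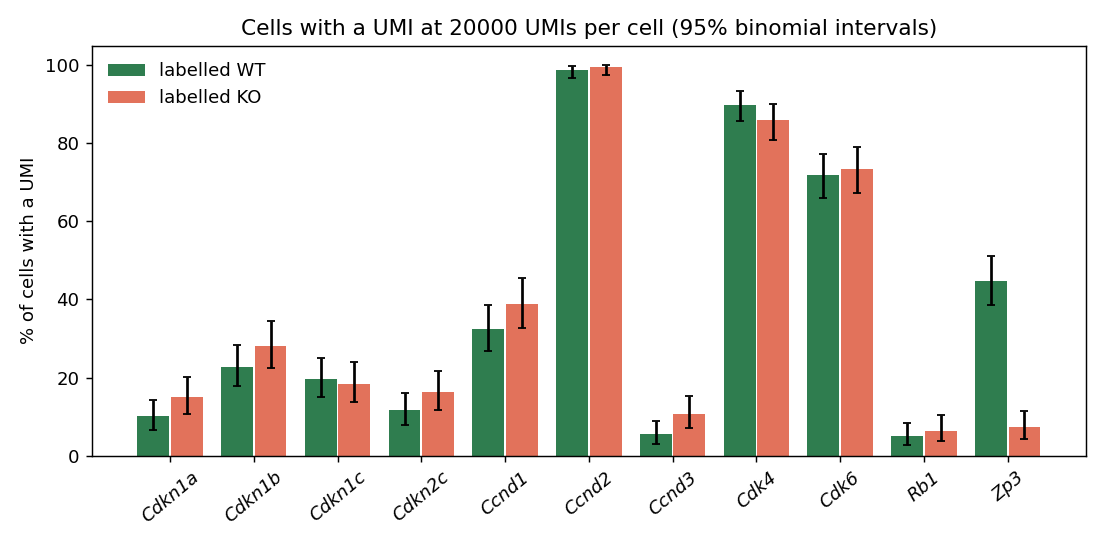
Percent of cells with at least 1 UMI of each member, and of the oocyte gene Zp3, after each kept cell was thinned to 20000 UMIs, for WT-labelled cells (green) and labelled KO (coral), with exact 95% binomial intervals. The intervals of the labels overlap for every member, and Zp3 stands at 44.8% of WT-labelled cells against 7.26% of KO-labelled cells.

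At that depth, at least 1 of the 4 inhibitors was seen in 138 of 259 WT-labelled cells (53.3%) and 137 of 234 labelled KO (58.5%), and at least 2 of them in 10.4% and 17.1%. More than 1 D cyclin was seen in 35.1% and 45.3% of cells, and both kinases in 66.8% and 64.1%. Molecules of p21 and p27 mRNA were seldom seen in the same cell. Cdkn1a was found in 1 of 59 WT-labelled cells with Cdkn1b (1.69%) and in 25 of 200 without it (12.5%), and in 5 of 66 (7.58%) and 30 of 168 (17.9%) of the KO-labelled cells. The difference was -10.8 percentage points [-16.4, -2.28] in WT-labelled cells and -10.3 [-18.6, 0.44] in KO-labelled cells, so its counting interval was apart from 0 in the former only, and the difference between the labels was not tested.

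Cdk6 was likewise less often found beside p57 than without it, in 60.8% of 51 WT-labelled cells with Cdkn1c against 74.5% of 208 without, and in 65.1% of 43 against 75.4% of 191 in KO-labelled cells. These differences, -13.7 points [-29.5, 1.13] and -10.3 points [-27.4, 5.15], held 0 in their intervals. Mki67, which marks dividing cells, was found in 17.9% of 84 WT-labelled cells with Ccnd1 and 25.7% of 175 without. In KO-labelled cells the same shares were 9.89% of 91 and 25.2% of 143, a difference of -15.3 points [-24.8, -4.69]. Cdkn1a went the other way there, with Mki67 in 34.3% of 35 KO-labelled cells with Cdkn1a and 16.6% of 199 without, 17.7 points [1.44, 36.3]. Among 18 pairs of genes in each pool, 36 comparisons in all, these and Cdkn1a with Cdkn1b in WT-labelled cells were the 3 whose difference lay apart from 0, and no correction was made for the number of comparisons.

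Cells were next ordered within each label by the summed CPM of 24 genes of the G2 and M phases (G2M list) and split into tertiles, to see where along the cell cycle each member was highest. The kinases were higher in the cells richest in G2M transcripts. Cdk4 rose in level from 296 to 386 and 490 CPM over the low, middle and high tertile of WT-labelled cells and from 300 to 332 and 473 CPM in KO-labelled cells, log2 ratios of the high over the low tertile of 0.72 [0.64, 0.80] and 0.66 [0.57, 0.75]. Cdk6 went from 200 to 264 and 361 CPM in WT-labelled cells, a log2 ratio of 0.85 [0.75, 0.95], but from 180 to 309 and 204 CPM in KO-labelled cells, 0.18 [0.05, 0.31]. Between the pools, the log2 ratio of Cdk6 in KO over WT was -0.82 [-0.91, -0.73] in the high tertiles, -0.15 [-0.28, -0.02] in the low and 0.23 [0.13, 0.33] in the middle. The tertiles were cut within each label and are not matched: the median G2M level was 402, 850 and 2723 CPM over those of WT-labelled cells and 367, 701 and 1596 CPM over those of KO-labelled cells.

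Of the inhibitors, Cdkn1b and Cdkn1c ran the other way in both labels, and Cdkn2c and Cdkn1a did not. Cdkn1b was lower in the high than the low tertile, by log2 ratios of -0.94 [-1.23, -0.65] in WT-labelled cells and -0.53 [-0.78, -0.28] in KO-labelled cells. For Cdkn1c the values were -1.29 [-1.57, -1.02] and -0.31 [-0.60, -0.02]. By this order, transcripts of p27, an inhibitor tied to HSC rest, were lowest in the high tertile of both pools. Those of p57, another such inhibitor, were lowest there in the WT-labelled pool only. In KO-labelled cells the middle tertile held the least Cdkn1c, 24.3 CPM against 32.1 in the high tertile. Shares of cells with Mki67 at equal depth did not show this pattern. Mki67 was found in 23.7% of WT-labelled cells with Cdkn1b and 23.0% without, and in 19.7% and 19.0% of KO-labelled cells. For Cdkn1c the shares were 31.4% and 21.2% in WT-labelled cells and 20.9% and 18.8% in KO-labelled cells. Each interval of these differences held 0.

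Ccnd1 and Ccnd2, whose proteins act in G1, also fell along this order. The log2 ratio of the high over the low tertile was -1.26 [-1.47, -1.05] for Ccnd1 in WT-labelled cells and -0.75 [-0.95, -0.54] in KO-labelled cells. For Ccnd2 it was -0.59 [-0.64, -0.55] and -0.40 [-0.45, -0.35]. With cells ordered by a list of S phase genes instead, Ccnd2 again fell but Ccnd1 did not. Ccnd1 was then at 0.04 [-0.16, 0.24] in WT-labelled cells and 0.62 [0.41, 0.84] in KO-labelled cells. Ccnd2 was higher in KO-labelled cells in each tertile, by log2 ratios of 0.31, 0.36 and 0.51.

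Cdkn2c was higher in the high than the low tertile of WT-labelled cells, by 0.58 [0.05, 1.14], and its value in KO-labelled cells was 0.13 [-0.28, 0.55]. Rb1 ran from 99 UMIs in the low tertile to 11 in the high tertile of WT-labelled cells, with 60.6% of the former in 1 cell. Ccnd3 was higher in KO-labelled cells in each tertile, at 1.82, 6.68 and 1.84 CPM in WT-labelled cells and 17.7, 11.9 and 10.2 CPM in KO-labelled cells. Cdkn1a went down in WT-labelled cells, by -0.45 [-0.73, -0.18], and up in KO-labelled cells, by 0.55 [0.28, 0.83], with 33.3% of the UMIs of the latter high tertile in 1 cell. Depth and oocyte transcripts moved with the order as well: the median UMIs per cell was 51974, 48618.5 and 82989 over the tertiles of WT-labelled cells and 46897, 48632.5 and 60838 over those labelled KO, and 13, 25 and 30 of the WT-labelled cells had oocyte transcripts. Without the cells with oocyte transcripts, the log2 ratio of the high over the low tertile of WT-labelled cells was -1.81 for Cdkn1a, -1.52 for Cdkn1b and -0.75 for Ccnd1. The part of depth in these levels was not tested.

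**Figure D5:**
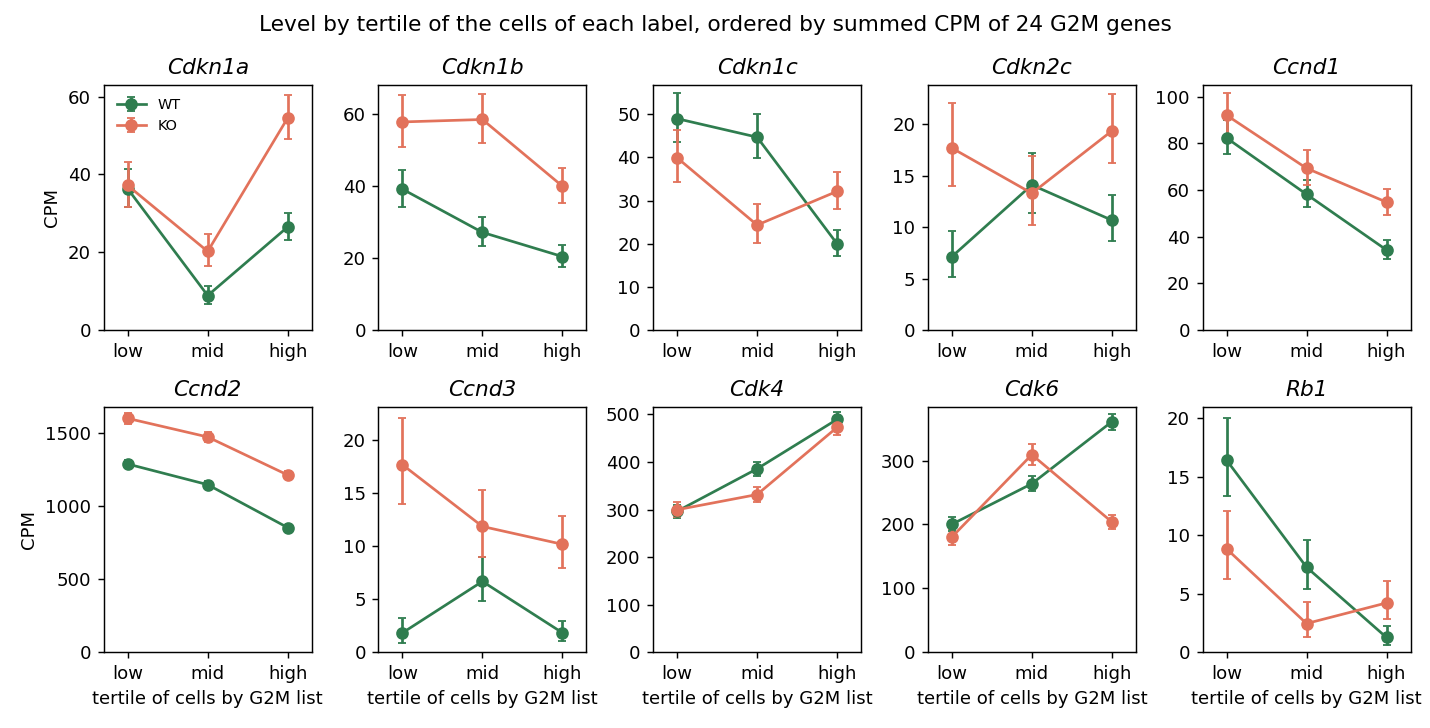
The level of each member, in CPM, in the low, middle and high tertile of WT-labelled cells (green) and labelled KO (coral), ordered within each label by the summed CPM of 24 G2M genes, with exact 95% Poisson intervals. Cdk4 rises and Ccnd1 and Ccnd2 fall over the tertiles in both labels, while Cdk6 rises to 361 CPM in WT-labelled cells and ends at 204 CPM in KO-labelled cells.

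The genes around these members in the pathway are given next by list, all counted in the direction of the KO-labelled pool. Over all genes 17.2% were at least 1.5-fold higher and 15.5% at least 1.5-fold lower, and the counts below are to be read against those shares. Among other inhibitors only Cdkn3, a phosphatase that acts on cyclin-dependent kinases, was in the table, of 4 listed. It stood at 13.6 and 9.58 CPM in the pools labelled WT and KO, a log2 ratio of -0.51 [-0.80, -0.22], with 38.1% of the UMIs of the KO-labelled pool in 1 cell, and at 0.11 without the cells with oocyte transcripts.

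Among the 12 pocket proteins and E2F factors, which act directly downstream of the members, 2 were at least 1.5-fold higher and 2 at least 1.5-fold lower, with a median of -0.05, about the background each way. E2f7, an E2F that represses its targets, went from 6.19 to 20.1 CPM, 1.70 [1.40, 1.9996], with 56.9% of its UMIs in the KO-labelled pool in 1 cell, or 1.28 without the cells with oocyte transcripts. E2f4, which acts in resting cells, went from 37.3 to 17.0 CPM, -1.13 [-1.34, -0.93].

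The DREAM complex, which holds cell cycle genes silent at rest, had 0 of 7 genes at least 1.5-fold higher and 2 lower, with a median of -0.05. Those were Mybl2, the activator that takes over in cycling cells, at 10.2 and 5.13 CPM (-0.99 [-1.37, -0.62]), and Lin9, at 12.2 and 7.05 CPM (-0.80 [-1.13, -0.48]). In the KO-labelled pool 1 cell held 33.7% of the Mybl2 UMIs. Without the cells with oocyte transcripts the list had a median of 0.06, with 1 gene at least 1.5-fold higher and 2 lower.

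Late cyclins and their kinases, which act after the D cyclins, had 2 of 10 genes at least 1.5-fold higher and 3 lower, with a median of -0.39. Ccnb1 went from 53.9 to 11.5 CPM, a log2 ratio of -2.23 [-2.46, -2.004], and -1.79 without the cells with oocyte transcripts, which held 45.5% of its UMIs in the WT-labelled pool. In the KO-labelled pool 1 cell held 30.1% of the Ccnb1 UMIs. Ccnb2 went from 126 to 64.5 CPM, -0.96 [-1.07, -0.86].

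The G2M list had 0 of 24 genes at least 1.5-fold higher and 14 lower, with a median of -0.72, or -0.60 without the cells with oocyte transcripts. Ttk, a mitotic checkpoint kinase, went from 20.9 to 7.35 CPM, -1.50 [-1.81, -1.21], or -1.35 without those cells, and was named with Ccnb1 as the farthest of that list. Of the Ttk UMIs, 1 cell held 21.0% in the WT-labelled pool and 1 cell 26.1% in the KO-labelled pool. The E2F targets of S phase stood nearer to no difference: 0 of 16 were at least 1.5-fold higher and 2 lower, with a median of -0.11. Without the cells with oocyte transcripts the median was -0.21, again with 0 higher and 2 lower. Gins2 went from 16.8 to 9.70 CPM, -0.79 [-1.07, -0.51], but was at 0.01 without the cells with oocyte transcripts, and Cdc6 went from 30.3 to 20.1 CPM, -0.59 [-0.79, -0.40].

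Of the genes that turn over p27 and the cyclins, 0 of 8 were at least 1.5-fold higher and 2 lower, with a median of -0.40. Cks1b, a cofactor needed to mark p27 for destruction, went from 205 to 133 CPM, -0.62 [-0.70, -0.55], and -0.50 without the cells with oocyte transcripts, where 1 of the 8 was at least 1.5-fold lower and the median was -0.25. Skp2, the ubiquitin ligase subunit that recognises p27, went from 15.6 to 11.2 CPM, -0.48 [-0.75, -0.22], within 1.5-fold. In the kinase that activates CDK4 and CDK6, 0 of 3 genes were at least 1.5-fold higher and 1 lower. That was Cdk7, at 363 and 70.1 CPM (-2.37 [-2.46, -2.28]), of which the cells with oocyte transcripts held 80.0% of the UMIs in the WT-labelled pool. Without those cells its log2 ratio was -0.48, and that of its cyclin Ccnh, at 119 and 98.8 CPM, was -0.27 [-0.37, -0.18] with them and -0.35 without.

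Of 20 genes tied to stem cell quiescence 18 were in the table, 4 at least 1.5-fold higher and 4 lower, with a median of 0.06. Mecom, a transcription factor that HSCs need, went from 32.9 to 72.3 CPM, 1.14 [0.999, 1.27], and Egr1, an immediate early factor, from 22.0 to 8.41 CPM, -1.39 [-1.67, -1.11]. Without the cells with oocyte transcripts these were 1.01 and -1.60, with 3 genes higher and 5 lower. A single cell held 26.9% of the Egr1 UMIs in the WT-labelled pool and 34.6% in the KO-labelled pool. Of 15 targets of p53, the regulator of Cdkn1a, 13 were in the table, 3 at least 1.5-fold higher and 1 lower, with a median of 0.28. Btg2, which restrains proliferation, went from 29.8 to 68.3 CPM, 1.19 [1.05, 1.34], or 1.38 without the cells with oocyte transcripts, and Phlda3 from 10.7 to 3.77 CPM, -1.50 [-1.93, -1.09], or -0.62 without them. For Phlda3, 1 cell held 33.6% of the UMIs in the WT-labelled pool and 1 cell 27.9% in the KO-labelled pool. The cells with oocyte transcripts held 59.4% of the Phlda3 UMIs of the WT-labelled pool. Between the pools, the p53 targets did not all go in the direction of Cdkn1a.

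Genes whose level followed a member across cells were sought by Pearson's r of log2(CPM/100 + 1), computed within each label and averaged, over 493 cells and 9325 genes. All points share the depth of their cell, and the values are weak. They are the 3 highest of 9325 genes for each member, and how high r rises by such a search alone was not tested. The labels could differ, as for Cdkn1b with Cln3, 0.370 in WT-labelled cells and 0.085 in KO-labelled cells. The highest were those of Cdk4, with Tuba1b (r = 0.391), Cdca7 (0.383) and Ptma (0.372), and of Cdk6, with Serpinb1a (0.305), Itga2b (0.283) and Nkg7 (0.278). For Cdkn1a they were Phlda3, itself a p53 target, at 0.239, Klhl21 at 0.238 and Lrr1 at 0.227. For Cdkn1b they were Sap130, Arrdc2 and Cln3, and for Cdkn1c Igf1, Xdh and Prkcb, all between 0.194 and 0.247. Cdkn2c had Cfap126, Mrpl15 and Acsl3, and Ccnd1 had Srm, Apex1 and St6galnac4, between 0.178 and 0.218. Ccnd2 had Aldoa (0.211), Ccnd1 (0.195) and Rpl37 (0.170), so that another D cyclin was among its nearest genes. For Ccnd1 that r was 0.266 in WT-labelled cells and 0.125 in KO-labelled cells. Ccnd3 had Foxp4 (0.267), Lrrc59 and Vhl, and Rb1 had Flot2, Spopl and Ctnnd1 (0.216 to 0.229).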

How the data were processed

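Single HSCs were profiled in 8 libraries, 4 per label, with a cell barcode and a UMI in the oligo-dT primer. The authors aligned reads to mm9 per the labels, counted UMIs per gene, removed genes and cells with low counts, and normalized; the aligner and the normalization method are not given in the sources used here. The deposited table gives 586 cells by 10720 genes on a log2 scale, after 1 was added to each normalized count. The authors' columns name a genotype label and a cell number but no library and no barcode. Cells shared between libraries could therefore not be counted. Cells had been picked by hand, and doublets were not searched for.

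UMI counts were recovered by undoing the log2 and dividing by the smallest step of each cell; 100% of values above 0 were whole within 0.01, with a largest distance of 0.00302. The study retained all 586 cells by a minimum of 2000 genes and 20000 UMIs; that minimum was applied again to the genes in the table, which keeps fewer cells, and UMIs were summed over the cells kept of each label, and pooled counts under 3 were raised to 3. Intervals of ratios and shares are Clopper-Pearson, those of levels exact Poisson and those of share differences Newcombe's, from the exact ones; all are at 95% and cover counting error only. A planned count model for libraries was not used, as no library could be told apart. The intervals of ratios were checked on simulated counts drawn from the counting model that they assume. The simulation left out the clumping of UMIs in single cells, so it does not show how the intervals fare with it. Python 3.11.15, numpy 2.4.6, scipy 1.17.1, pandas 2.3.3 and matplotlib 3.10.9 were used.

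The genes named are the members, Med23, the cell markers, from each pathway list the 2 genes with the largest ratio among genes averaging 0.5 or more UMIs over kept cells, and the 3 genes with the highest r per member. Members and lists were chosen with earlier results of these data known. Other marker lists were neutrophil (2 of 8 genes in the table, 23.6 and 11.4 CPM summed in the WT- and KO-labelled pools), erythroid (2 of 6, 10.1 and 63.5 CPM), lymphocyte (2 of 6, 226 and 292 CPM), macrophage (2 of 6, 32.0 and 59.1 CPM), and stroma and endothelium (5 of 7, 74.7 and 100.2 CPM). Alternatives were every cell, a minimum of 3000 genes and 30000 UMIs, thinning, other scalings (median-of-ratios, upper quartile and TMM, trimming 30% of ratios and 5% of levels), cells weighing the same, other thinning depths and minima for shares, tertiles by the S phase list, and leaving out top cells or cells with over 1000 CPM of oocyte genes.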

Additional observations from a re-analysis of the deposited data

How the results depend on the processing

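Cdkn1a, Cdkn1b, Cdkn2c, the 3 D cyclins, Cdk4 and Cdk6 kept the direction of their ratio between pools under every alternative run, while Cdkn1c and Rb1 did not. The cause of each change was not tested, beyond what the alternative leaves out or weighs anew. Thinned to 20000 UMIs, the log2 ratio was 0.17 for Cdkn1c, 0.60 for Rb1 and 0.31 for the summed inhibitors. With the authors' normalized values averaged over cells, it was 0.024 for Cdkn1c, 0.27 for Rb1, 0.40 for the inhibitors, 0.17 for the D cyclins, -0.33 for the kinases and 0.27 for the median member, with 2 members at least 1.5-fold higher; the median of all genes was -0.14 on that scale, and values on it are to be read against that. As the mean over cells of log2(CPM/100 + 1), a scale that shrinks low genes, it was 0.013 for Cdkn1c, 0.021 for Rb1, 0.15 for the inhibitors, 0.44 for the D cyclins, -0.12 for the kinases and 0.061 for the median member, with 0 members at least 1.5-fold higher. With 0.1 in place of 1 the first 4 of these were 0.012, 0.051, 0.31 and 0.53, with 0.16 for the median member and again 0 members. Without the 5 top cells, an alternative chosen after seeing the data, Cdkn1c was at 0.049 and Rb1 at 0.072. The D cyclins were at 0.35 with at least 3000 genes and 30000 UMIs, 0.37 under median-of-ratios scaling, 0.36 under TMM and 0.34 without cells with oocyte transcripts, where the kinases were at -0.23 and the median member at 0.27. The number of members at least 1.5-fold lower was 1, always Rb1, with every cell, the stricter minimum, the 3 other scalings and without cells with oocyte transcripts. By tertiles of the S phase list, the log2 ratio of the high over the low tertile was 0.16 for Cdkn1a, -0.037 for Cdkn2c and 0.039 for Ccnd1 in WT-labelled cells and 0.62 for Ccnd1 in KO-labelled cells. In KO-labelled cells it was also -1.15 [-1.60, -0.71] for Cdkn2c, 1.64 [1.30, 1.99] for Cdkn1a and -0.16 [-0.45, 0.12] for Cdkn1b. The course of these inhibitors and of Ccnd1 thus depended on the list used. Cdk4 and Cdk6 again rose and Cdkn1c and Ccnd2 again fell in both labels. The median difference in shares of cells over members, 3.17 points, was 1.06 to 2.73 points under its alternatives. No paired analysis was possible because library numbers are missing from the column names, and for the same reason leaving out a library was not run. The rare members limit what can be read: Ccnd3, Rb1 and Cdkn2c rest on 72 to 276 UMIs per pool.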

Other observations

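The 93 cells under the minimum of 2000 genes and 20000 UMIs, 45 labelled WT with 679744 UMIs and 48 labelled KO with 749338 UMIs, were not part of the values above. In them the kinases were higher in the KO-labelled pool: Cdk4 stood at 234 CPM in the WT-labelled pool and 307 CPM in the KO-labelled pool, a log2 ratio of 0.39 [0.09, 0.69], and Cdk6 at 212 and 272 CPM, 0.36 [0.05, 0.68]. This is the opposite direction to the kept cells. Cdkn1b stood at 95.6 and 86.7 CPM, from 65 UMIs in each pool, and Ccnd2 at 1231 and 1323 CPM, and neither ratio was apart from 0 by its counting interval. No UMI of Rb1 was seen in either pool of these cells.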
